A study of Homo sapiens with 8 samples.

Results

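The genes described here encode the chaperones that fold proteins in the cytosol and in mitochondria, with 2 of the transcription factors that switch them on. They were chosen by symbol, as 45 genes of 25066 in the gene table, and all 45 were found there. They comprise 2 heat shock factors, 15 genes of the HSP70 system, 8 of the HSP90 system, 1 small heat shock protein, 8 subunits of the chaperonin TRiC, 3 of prefoldin and 8 mitochondrial chaperones and proteases. A gene was tested where its mean over the libraries was worth at least 10 reads, which left 12682 genes and 44 of the 45 chosen ones. The gene below that level was HSPA1A, the stress-inducible HSP70, with 1 read in sgKLHL14 ibrutinib replicate 1, 1 read in sgCTRL DMSO replicate 1 and 0 reads in the other 6 libraries.

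The RNA came from TMD8, a human cell line from a diffuse large B cell lymphoma of the activated B cell (ABC) type, made to express Cas9 from a lentivirus. The 4 groups were KLHL14(-/-) cells (guide sgKLHL14) with 2 nM ibrutinib, KLHL14(-/-) cells with DMSO, KLHL14(+/+) cells (guide sgCTRL) with 2 nM ibrutinib, and KLHL14(+/+) cells with DMSO, each with 2 libraries taken at 24 h. Ibrutinib is a covalent inhibitor of BTK, the kinase that carries B cell receptor signals, DMSO is its solvent, and KLHL14 is an adaptor of a cullin ubiquitin ligase. All 4 groups carry Cas9 and a guide, and the labels do not say whether a line is 1 clone. They also do not say that replicate libraries were grown separately, so the p-values rest on a spread between samples that may be technical only.

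Chaperones bind unfolded proteins and release them in cycles of ATP hydrolysis. HSP70 proteins take up short stretches of new chains with the help of J proteins, HSP90 completes the folding of kinases and receptors, and the barrel of TRiC encloses actin, tubulin and other proteins that prefoldin passes on. Mitochondria import proteins unfolded and fold them with their own HSP70 and with the HSPD1 and HSPE1 chaperonin. The genes that respond to heat are switched on by HSF1, which binds repeats of the bases GAA in alternating orientation. Lymphoma cells make proteins at a high rate, and BTK itself is a kinase that HSP90 folds.

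The HSF1 element is shown here because it is what the family is known for. In the 250 bases before each start in RefSeq (GRCh38.p14), 37 of the 45 genes had an entry. STUB1, FKBP4, HSF1, HSPA14, PFDN2, GRPEL1, CLPP and CCT6A had none. An element of at least 3 units, GAA alternating with TTC and 2 bases between units, read on both strands, was in 6 of the 37 genes (16.2%) and in 0.557% of all 27305 genes with an entry. Elements of 2 units (GAANNTTC or TTCNNGAA), which every longer element contains, were in 16 genes (43.2%), against 14% of all genes. The CCAAT box, a common promoter element, was in 37.8%, against 37.0% of all genes. A match is a run of letters and not a site shown to be bound. The windows of 30 bases below have the element in capitals and are given 5′ to 3′ on the strand of the gene.
CHORDC1 (5 units): ccgGAAAATTCGCGAAGGTTCCTGAAacgc
HSPD1 (4 units): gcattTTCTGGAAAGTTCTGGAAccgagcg
HSP90AA1 (3 units): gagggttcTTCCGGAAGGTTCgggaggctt
HSP90AB1 (3 units): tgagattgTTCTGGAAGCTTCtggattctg
HSPA8 (3 units): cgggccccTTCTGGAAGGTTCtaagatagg
DNAJB6 (3 units): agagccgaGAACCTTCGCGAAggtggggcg
The windows lie at chr11:90223083-90223112 on the minus strand for CHORDC1, chr2:197500061-197500090 on the minus strand for HSPD1, chr14:102087111-102087140 on the minus strand for HSP90AA1, chr6:44247823-44247852 on the plus strand for HSP90AB1, chr11:123062170-123062199 on the minus strand for HSPA8 and chr7:157336865-157336894 on the plus strand for DNAJB6. The windows of CHORDC1, HSP90AA1 and HSPA8 overlap an exon that GENCODE annotates for the same gene, that of HSPD1 overlaps an exon of its neighbour HSPE1, and those of HSP90AB1 and DNAJB6 overlap no annotated exon. HSPA8 and HSP90AB1 each hold a second element of 3 units that is not shown. It begins 230 and 165 bases before the start, in windows that overlap no annotated exon. The element of CHORDC1 begins 60 bases before the start and that of HSPD1 begins 245 bases before the second of 2 RefSeq starts. HSPD1 and HSPE1, whose proteins form 1 chaperonin, stand head to head on chromosome 2 with their nearest starts 105 bases apart, and 104 bases lie in the upstream windows of both. The second HSPD1 start lies 539 bases from the HSPE1 start. The HSPD1 element shown thus lies outside those 104 bases and downstream of the first HSPD1 start. HSPD1 counts as holding an element through its second start alone.

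The libraries held 12333876 to 16843591 reads in the ibrutinib groups and 13497206 to 23467110 in the DMSO groups. In sgKLHL14 cells the ranges did not overlap, at 12333876 and 16843591 under ibrutinib against 22189713 and 23467110 in DMSO. In sgCTRL cells they overlapped, at 13331861 and 16520319 against 13497206 and 23152352. Depth thus went along with treatment in sgKLHL14 cells, and its part in the results was not tested. The first principal component took 63.8% of the variance and separated treatments, and the second took 11.4% and separated guides. KLHL14 mRNA was not reduced where the label is sgKLHL14. It stood at 13.16 and 13.16 under ibrutinib and 12.19 and 12.33 in DMSO in those libraries, against 12.30 and 12.30 under ibrutinib and 12.07 and 12.06 in DMSO in the sgCTRL libraries (log2 normalized reads). A guide can disrupt a protein without lowering its mRNA, so this neither checks nor contradicts the label. The B cell genes MS4A1, CD79A, CD79B, PAX5 and CD22 were present in every library, with 0.407% to 0.430% of reads under ibrutinib and 0.282% to 0.306% in DMSO. This B cell share moved with treatment, and its part in the results was not tested. Of 4 T cell markers 2 (CD3D and CD3E) were at 0 reads throughout, and the 4 together made up 0.000188% to 0.000259% of reads under ibrutinib and 0.00014% to 0.000145% in DMSO, nearly all of them from CD8A (log2 change 0.74 in sgKLHL14 cells, limma, adjusted p = 0.0330, and 0.63 in sgCTRL cells, adjusted p = 0.0744). The 4 myeloid markers made up 5.68e-05% to 0.00012% under ibrutinib and 6.39e-05% to 9.63e-05% in DMSO. The 5 epithelial and fibroblast markers made up 0.00148% to 0.00169% under ibrutinib and 0.00140% to 0.00172% in DMSO, with COL1A1 higher (0.91 and 1.05, adjusted p = 0.000902 and 0.000273) and KRT8 lower (-0.60 and -0.47, adjusted p = 0.00149 and 0.0104) in ibrutinib with sgKLHL14 and sgCTRL. The part of these markers in the results was not tested. In RNA of whole cultures, fewer cells of a type and less RNA per cell cannot be told apart.

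Most of the chaperone genes were modestly lower under ibrutinib. In sgKLHL14 cells 34 of the 44 tested genes fell and 0 rose, at an adjusted p under 0.05 in limma's moderated test over all genes, with 37 below an unadjusted p of 0.05. Of all tested genes 19.3% fell and 19.7% rose in that comparison, and 5955 of 12682 were below an unadjusted p of 0.05. In sgCTRL cells 30 of 44 fell and 0 rose, with 35 below an unadjusted p of 0.05. There 16.9% of all genes fell and 17.9% rose, and 5601 of 12682 were below an unadjusted p of 0.05. Voom, a count-based alternative, likewise called 0 of the 44 higher in either comparison. The median log2 change of the 44 genes was -0.30 in sgKLHL14 cells and -0.26 in sgCTRL cells, where the medians of all tested genes were 0.011 and 0.018. All 44 log2 changes were below 0 in sgKLHL14 cells and 42 of 44 in sgCTRL cells, the 2 others being DNAJA1 and DNAJB1 at 0.02 and 0.03. The count of falls was 21 without sgKLHL14 ibrutinib replicate 2 in the sgKLHL14 comparison, and 19 without sgCTRL ibrutinib replicate 1 in the sgCTRL comparison.

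**Figure D1:**
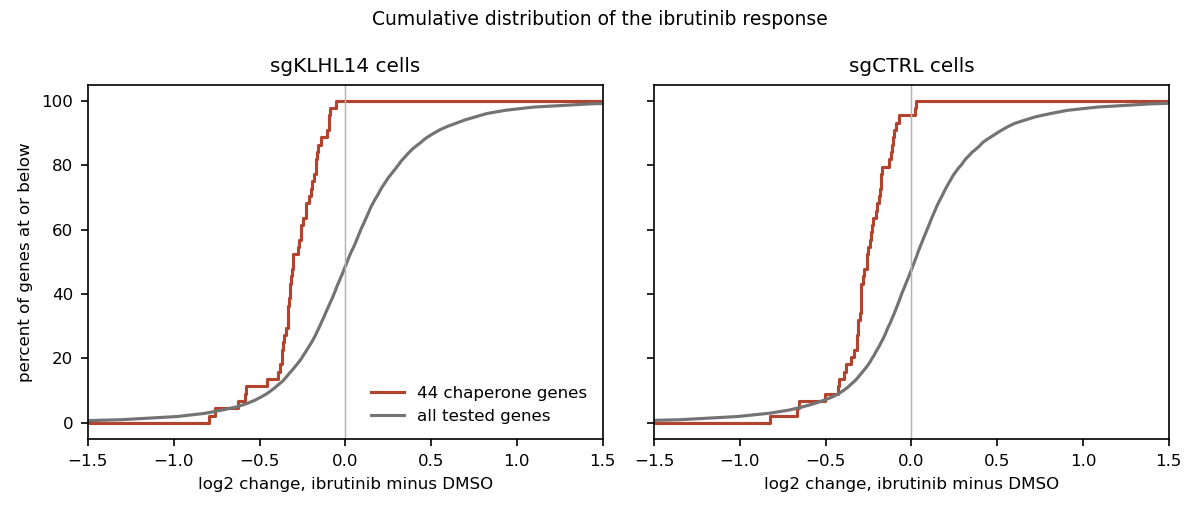
Cumulative percent of genes (y axis) at or below a given log2 change of ibrutinib minus DMSO (x axis), for the 44 tested chaperone genes and for all tested genes, in sgKLHL14 cells (left) and sgCTRL cells (right). The chaperone line lies left of the line of all genes over most of its length and ends near 0, whereas the line of all genes runs on to the right, and the lowest chaperone change is -0.80 in sgKLHL14 cells and -0.82 in sgCTRL cells.

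The comparisons in sgKLHL14 and in sgCTRL cells share no library. Their tests do share a spread, pooled over the libraries of all groups, so the calls with the guides are not independent. In both comparisons 29 of the 44 genes fell, while 1731 of all 12682 tested genes (13.6%) did. The 29 are 85.3% of the chaperone falls in sgKLHL14 cells and 96.7% of those in sgCTRL cells. Of all tested genes 2444 fell in sgKLHL14 cells and 2140 in sgCTRL cells, so most of those falls were shared as well. CCT2, CCT3, CDC37, GRPEL1 and HSPB1 passed the test in sgKLHL14 cells alone and AHSA1 in sgCTRL cells alone. None of these 6 differed between the responses in the test of the difference, which is given with the guides. The 9 genes that passed in neither were HSF1, HSPA1B, HSPA4, DNAJA1, DNAJB1, DNAJB6, BAG3, STUB1 and PFDN6.

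**Figure D2:**
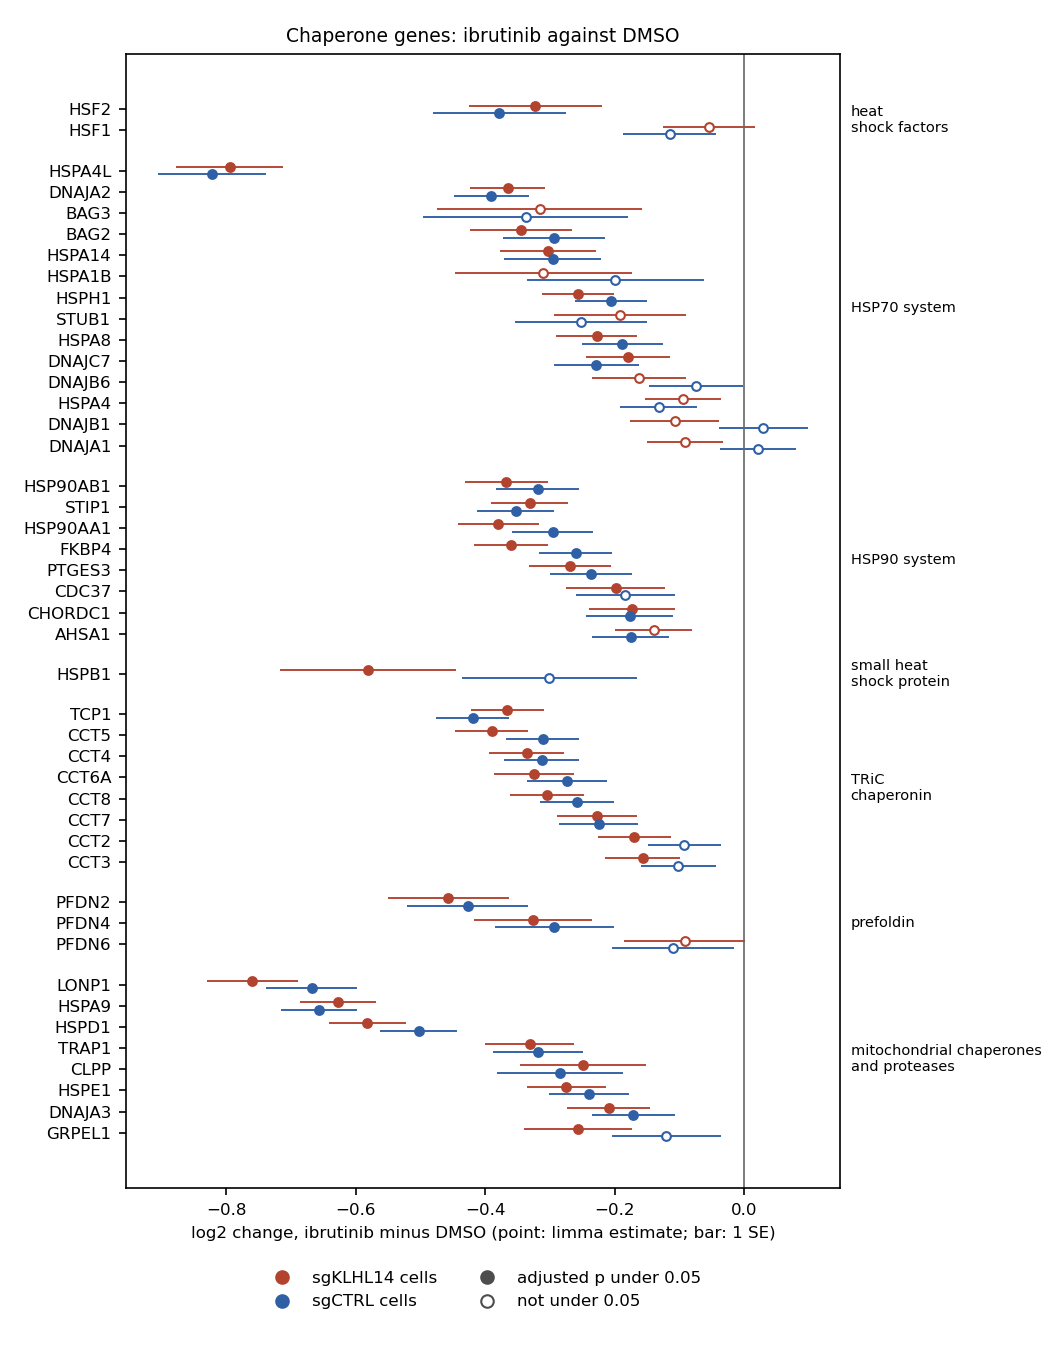
Log2 change of ibrutinib minus DMSO (x axis; point, limma estimate; bar, 1 SE; 2 libraries a group) for the 44 tested chaperone genes by system, in sgKLHL14 cells (red) and sgCTRL cells (blue), with filled points at an adjusted p under 0.05. Within each guide HSPA4L, LONP1, HSPA9 and HSPD1 lie farthest left at -0.50 to -0.82, with HSPB1 level with HSPD1 in sgKLHL14 cells at -0.58, and DNAJB1 and DNAJA1 lie nearest to or right of 0 in sgCTRL cells.

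HSF1 and HSF2 are known to bind elements of this kind, HSF1 as the main regulator in stressed cells and HSF2 as a partner of it. HSF2 fell with both guides, and HSF1, which had 10.41 and 10.46 under ibrutinib against 10.53 and 10.45 in DMSO in sgKLHL14 cells, did not pass the test (log2 change -0.05, adjusted p = 0.580; -0.12 in sgCTRL cells, adjusted p = 0.227). HSF2 stood at 8.90 and 8.74 under ibrutinib against 9.14 and 9.14 in DMSO in sgKLHL14 cells, and at 8.68 and 8.77 against 9.01 and 9.20 in sgCTRL cells. Its log2 change was -0.32 ± 0.10 (SE; limma, adjusted p = 0.0177) in sgKLHL14 cells and -0.38 ± 0.10 (adjusted p = 0.00730) in sgCTRL cells. The call ended in sgKLHL14 cells without DMSO replicate 1, DMSO replicate 2 or ibrutinib replicate 2 of that guide, at adjusted p of 0.0613 to 0.152. In sgCTRL cells it ended without DMSO replicate 2 or ibrutinib replicate 1, at 0.0713 to 0.0956.

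The HSP70 system held the lowest change with either guide and, in sgCTRL cells, the changes nearest to 0. Of its 14 tested genes 7 fell with either guide, with median log2 changes of -0.24 in sgKLHL14 cells and -0.22 in sgCTRL cells. Among the HSP70 proteins themselves 4 of 6 fell with both guides: HSPA4L and HSPH1, which exchange the nucleotide of HSP70, HSPA8, the constitutive cytosolic HSP70, and HSPA14, which works at the ribosome. HSPA4L had the lowest change of all the chosen genes. It stood at 9.21 and 9.20 under ibrutinib against 9.93 and 10.06 in DMSO in sgKLHL14 cells, and at 9.26 and 9.21 against 10.04 and 10.07 in sgCTRL cells. The ibrutinib libraries were far below the DMSO libraries and close to each other. Its log2 change was -0.80 ± 0.08 (SE; limma, adjusted p = 3.7e-07) in sgKLHL14 cells and -0.82 ± 0.08 (adjusted p = 2.48e-07) in sgCTRL cells. Its RNA fell by 42.4% in sgKLHL14 cells and fell by 43.4% in sgCTRL cells, and 3.12% and 3.08% of all tested genes had a change as low or lower.

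HSPA8 had 15.78 and 15.70 under ibrutinib against 15.96 and 15.97 in DMSO in sgKLHL14 cells, and 15.69 and 15.71 against 15.91 and 15.86 in sgCTRL cells. Its libraries did not overlap between treatments, and its log2 change was -0.23 ± 0.06 (limma, adjusted p = 0.00695) in sgKLHL14 cells and -0.19 ± 0.06 (adjusted p = 0.0253) in sgCTRL cells. With quantile scaling the change in sgKLHL14 cells was -0.12 at an adjusted p of 0.0601. HSPH1 changed by -0.26 ± 0.06 (limma, adjusted p = 0.00118) in sgKLHL14 cells and -0.21 ± 0.06 (adjusted p = 0.00747) in sgCTRL cells, and HSPA14 by -0.30 ± 0.07 with either guide (adjusted p = 0.00299 and 0.00421). HSPA4, the close relative of HSPA4L, had 13.43 and 13.30 under ibrutinib against 13.42 and 13.49 in DMSO in sgKLHL14 cells and did not pass the test (log2 change -0.09, adjusted p = 0.222; -0.13 in sgCTRL cells, adjusted p = 0.0926). HSPA1B, which is stress-inducible, had 8.64 and 8.13 against 8.71 and 8.68 and did not pass either (-0.31, adjusted p = 0.0795; -0.20 in sgCTRL cells, adjusted p = 0.276). Without sgKLHL14 ibrutinib replicate 1 its change in sgKLHL14 cells was -0.56 with an adjusted p of 0.00349. HSPA1A and HSPA1B are nearly identical in sequence, so which of the pair the reads came from is uncertain.

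J proteins hand substrates to HSP70 and start its ATP hydrolysis. Of the 5 cytosolic ones DNAJA2 and DNAJC7 fell with both guides. DNAJA2 had 12.16 and 12.09 under ibrutinib against 12.50 and 12.48 in DMSO in sgKLHL14 cells, and 12.01 and 12.05 against 12.41 and 12.43 in sgCTRL cells. Its log2 change was -0.37 ± 0.06 (limma, adjusted p = 5.19e-05) in sgKLHL14 cells and -0.39 ± 0.06 (adjusted p = 3.01e-05) in sgCTRL cells. The heat-inducible DNAJB1 had 11.02 and 10.88 against 11.06 and 11.05 in sgKLHL14 cells, and 11.03 and 10.93 against 10.94 and 10.96 in sgCTRL cells, where the treatments overlapped. It did not pass the test (log2 change -0.11, adjusted p = 0.227, in sgKLHL14 cells and 0.03, adjusted p = 0.769, in sgCTRL cells). DNAJA1, a relative of DNAJA2, changed by -0.09 in sgKLHL14 cells and 0.02 in sgCTRL cells, and DNAJB6, which keeps proteins from aggregating and has an element shown above, by -0.16 and -0.07, none of them past the test. With quantile scaling the change of DNAJA1 in sgCTRL cells was not above 0, and without sgKLHL14 ibrutinib replicate 1 DNAJB6 in sgKLHL14 cells stood at -0.28 with an adjusted p of 0.00760. DNAJC7, which binds HSP70 and HSP90, changed by -0.18 ± 0.07 (limma, adjusted p = 0.0363) in sgKLHL14 cells and -0.23 ± 0.07 (adjusted p = 0.0106) in sgCTRL cells.

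Of the 3 cochaperones that bind HSP70 as BAG proteins or as the ubiquitin ligase CHIP (STUB1), BAG2 fell with both guides. It had 9.57 and 9.57 under ibrutinib against 9.92 and 9.92 in DMSO in sgKLHL14 cells, and 9.43 and 9.44 against 9.73 and 9.72 in sgCTRL cells, with log2 changes of -0.35 ± 0.08 (limma, adjusted p = 0.00180) and -0.29 ± 0.08 (adjusted p = 0.00693). BAG3, a heat-inducible partner of HSP70, had 7.77 and 8.06 against 8.33 and 8.13, and 8.07 and 7.60 against 8.31 and 8.03. Its libraries of 1 group lay far apart, and its changes of -0.32 and -0.34 did not pass (adjusted p = 0.124 and 0.108). In sgCTRL cells BAG3 stood at -0.57 with an adjusted p of 0.0229 without ibrutinib replicate 1. STUB1 changed by -0.19 in sgKLHL14 cells and -0.25 in sgCTRL cells without passing (adjusted p = 0.145 and 0.0613). Without sgCTRL DMSO replicate 2 its change in sgCTRL cells was -0.41 with an adjusted p of 0.00973.

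Several of the HSP70 calls ended when 1 library was left out. In sgKLHL14 cells the call of DNAJC7 ended without DMSO replicate 1, DMSO replicate 2 or ibrutinib replicate 2 of sgKLHL14 or without either ibrutinib library of sgCTRL, and those of HSPA14 and HSPA8 without ibrutinib replicate 2 of sgKLHL14, at adjusted p of 0.0527 to 0.354. The change of DNAJC7 was -0.10 without that last library. In sgCTRL cells DNAJC7 and HSPA8 lost the call without DMSO replicate 1, ibrutinib replicate 1 or ibrutinib replicate 2, HSPH1 without DMSO replicate 2 or either ibrutinib library, and BAG2 and HSPA14 without ibrutinib replicate 1, at adjusted p of 0.0515 to 0.188. With all libraries, DNAJC7 and HSPA8 also lost it in sgKLHL14 cells without a filter on low values or with quantile scaling, and DNAJC7 without a variance trend (0.0557 to 0.134). In sgCTRL cells both lost it without a variance trend and HSPA8 without a filter (0.0641 to 0.112). HSPA4L and DNAJA2 kept the call under each of the 16 alternatives with both guides, and HSPH1 and BAG2 did in sgKLHL14 cells.

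In the HSP90 system 7 of 8 genes fell with either guide, within a range of -0.38 to -0.14 in sgKLHL14 cells and -0.35 to -0.18 in sgCTRL cells and with median log2 changes of -0.30 in sgKLHL14 cells and -0.25 in sgCTRL cells. HSP90AB1, the constitutive HSP90, had 16.17 and 16.14 under ibrutinib against 16.55 and 16.50 in DMSO in sgKLHL14 cells, and 16.16 and 16.16 against 16.48 and 16.48 in sgCTRL cells. HSP90AA1, the inducible form, had 15.78 and 15.73 against 16.11 and 16.16, and 15.78 and 15.78 against 16.09 and 16.06. Treatments did not overlap for either gene. The log2 change of HSP90AB1 was -0.37 ± 0.06 (limma, adjusted p = 0.000150) in sgKLHL14 cells and -0.32 ± 0.06 (adjusted p = 0.000689) in sgCTRL cells. That of HSP90AA1 was -0.38 ± 0.06 (adjusted p = 8.23e-05) and -0.30 ± 0.06 (adjusted p = 0.00108). The log2 ratio of HSP90AA1 to HSP90AB1 was -0.39 ± 0.013 under ibrutinib and -0.39 ± 0.043 in DMSO (SD, n = 4 each over both guides), a difference of 0.0058 (two-sided exact permutation test, p = 0.829, smallest possible p 0.0286).

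Of the partners of HSP90, STIP1, which passes proteins from HSP70 to HSP90, had 12.92 and 12.87 under ibrutinib against 13.23 and 13.23 in DMSO in sgKLHL14 cells, and 12.88 and 12.86 against 13.29 and 13.16 in sgCTRL cells. Its log2 changes were -0.33 ± 0.06 (limma, adjusted p = 0.000180) and -0.35 ± 0.06 (adjusted p = 0.000115). FKBP4, a cochaperone of steroid receptor complexes, changed by -0.36 ± 0.06 (limma, adjusted p = 4.83e-05) in sgKLHL14 cells and -0.26 ± 0.06 (adjusted p = 0.00135) in sgCTRL cells. PTGES3 (p23), which holds HSP90 in its closed state, changed by -0.27 ± 0.06 (limma, adjusted p = 0.00232) and -0.24 ± 0.06 (adjusted p = 0.00683). Smaller falls were seen for CHORDC1, an HSP90 partner whose promoter holds the longest element shown, at -0.17 ± 0.07 (adjusted p = 0.0468) and -0.18 ± 0.07 (adjusted p = 0.0469). CDC37, which brings kinases to HSP90, had 12.60 and 12.58 under ibrutinib against 12.86 and 12.72 in DMSO in sgKLHL14 cells (-0.20, adjusted p = 0.0466), and 12.59 and 12.56 against 12.91 and 12.61 in sgCTRL cells (-0.18, not past the test, adjusted p = 0.0701). AHSA1, which stimulates the ATPase of HSP90, changed by -0.14 in sgKLHL14 cells without passing (adjusted p = 0.0690) and by -0.18 ± 0.06 (adjusted p = 0.0271) in sgCTRL cells.

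HSP90AA1, HSP90AB1, STIP1 and FKBP4 kept the call under all 16 alternatives with both guides. In sgKLHL14 cells the call of CHORDC1 ended without any 1 library other than DMSO replicate 1 of sgKLHL14, that of CDC37 without DMSO replicate 1 or either ibrutinib library of sgKLHL14 or either ibrutinib library of sgCTRL, and that of PTGES3 without ibrutinib replicate 2 of sgKLHL14, at adjusted p of 0.0514 to 0.280. The change of CDC37 was -0.13 without DMSO replicate 1. In sgCTRL cells CHORDC1 lost the call without any 1 of the 4 sgCTRL libraries, AHSA1 without DMSO replicate 1 or either ibrutinib library, and PTGES3 without DMSO replicate 2 or ibrutinib replicate 2, at adjusted p of 0.0715 to 0.348. With all libraries, CHORDC1 and CDC37 also lost it in sgKLHL14 cells without a filter or without a variance trend, CDC37 with quantile or median scaling and CHORDC1 with voom (0.0517 to 0.209). In sgCTRL cells CHORDC1 and AHSA1 lost it without a filter or a variance trend, CHORDC1 with quantile scaling and PTGES3 without a variance trend (0.0554 to 0.116). The change of AHSA1 was -0.11 without DMSO replicate 1, and that of CDC37, which then passed, was -0.33 (adjusted p = 0.00286) without DMSO replicate 2. CDC37 also passed there without DMSO replicate 1 or 2 of sgKLHL14 (adjusted p = 0.0481 and 0.0478).

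HSPB1, the one small heat shock protein among the chosen genes, which holds unfolded proteins without using ATP, differed widely between libraries of a group in DMSO. It stood at 8.72 and 8.85 under ibrutinib against 9.59 and 9.14 in DMSO in sgKLHL14 cells, and at 8.86 and 9.04 against 9.43 and 9.07 in sgCTRL cells. Its log2 change was -0.58 ± 0.14 (limma, adjusted p = 0.00207) in sgKLHL14 cells and -0.30 ± 0.14, not past the test, in sgCTRL cells (adjusted p = 0.0930). Without sgKLHL14 DMSO replicate 1 the first was -0.35 at an adjusted p of 0.0662 (0.0592 without a variance trend), and without sgCTRL DMSO replicate 2 the second was -0.48 at an adjusted p of 0.0307. The second also passed without DMSO replicate 1 or 2 of sgKLHL14 (adjusted p = 0.0484 and 0.0460).

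TRiC is a double ring of subunits, and all 8 of its tested genes fell in sgKLHL14 cells and 6 of 8 in sgCTRL cells, with median log2 changes of -0.31 and -0.27. TCP1, the alpha subunit, had 12.54 and 12.49 under ibrutinib against 12.89 and 12.86 in DMSO in sgKLHL14 cells, and 12.44 and 12.45 against 12.89 and 12.84 in sgCTRL cells. The libraries of the treatments stood well apart, and its log2 change was -0.37 ± 0.06 (limma, adjusted p = 3.87e-05) in sgKLHL14 cells and -0.42 ± 0.06 (adjusted p = 9.45e-06) in sgCTRL cells. CCT5, the epsilon subunit, changed by -0.39 ± 0.06 (adjusted p = 2.07e-05) and -0.31 ± 0.06 (adjusted p = 0.000269), and CCT4, the delta subunit, by -0.34 ± 0.06 (adjusted p = 0.000127) and -0.31 ± 0.06 (adjusted p = 0.000305). CCT6A, the zeta subunit, changed by -0.32 ± 0.06 (adjusted p = 0.000333) and -0.27 ± 0.06 (adjusted p = 0.00182), and CCT8, the theta subunit, by -0.30 ± 0.06 (adjusted p = 0.000311) and -0.26 ± 0.06 (adjusted p = 0.00165). CCT7, the eta subunit, changed by -0.23 ± 0.06 with either guide (adjusted p = 0.00637 and 0.00776).

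CCT2 and CCT3, the beta and gamma subunits, had the smallest changes of the complex. CCT2 had 13.34 and 13.27 under ibrutinib against 13.50 and 13.45 in DMSO in sgKLHL14 cells (log2 change -0.17 ± 0.06; limma, adjusted p = 0.0228), and 13.32 and 13.28 against 13.39 and 13.41 in sgCTRL cells (-0.09 ± 0.06, adjusted p = 0.218). CCT3 changed by -0.16 ± 0.06 (limma, adjusted p = 0.0368) in sgKLHL14 cells and -0.10 ± 0.06 (adjusted p = 0.183) in sgCTRL cells. Per kilobase of transcript the subunits ranged in sgCTRL DMSO libraries from a mean of 2984 normalized reads for TCP1 to 9557 for CCT7. TCP1, CCT4, CCT5, CCT6A and CCT8 kept the call under all 16 alternatives with both guides. In sgKLHL14 cells CCT3 lost it without DMSO replicate 1 or either ibrutinib library of sgKLHL14 or either ibrutinib library of sgCTRL, CCT2 without DMSO replicate 1 or ibrutinib replicate 2 of sgKLHL14 or either ibrutinib library of sgCTRL, and CCT7 without DMSO replicate 1 of sgKLHL14, at adjusted p of 0.0517 to 0.177, and all 3 without a variance trend and CCT3 without a filter, at 0.0592 to 0.101. In sgCTRL cells CCT7 lost it without DMSO replicate 1 or either ibrutinib library, at 0.0674 to 0.106, and without a variance trend, at 0.0667.

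Prefoldin, which hands new actin and tubulin chains to TRiC, fell in 2 of its 3 chosen subunits with both guides. PFDN2 had 9.48 and 9.21 under ibrutinib against 9.75 and 9.85 in DMSO in sgKLHL14 cells, and 9.34 and 9.38 against 9.78 and 9.78 in sgCTRL cells. Its log2 changes were -0.46 ± 0.09 (limma, adjusted p = 0.000664) and -0.43 ± 0.09 (adjusted p = 0.00144), and its call held under all 16 alternatives. PFDN4 changed by -0.33 ± 0.09 (limma, adjusted p = 0.00788) and -0.29 ± 0.09 (adjusted p = 0.0176). Its call ended in sgKLHL14 cells without DMSO replicate 1 or ibrutinib replicate 2 (adjusted p of 0.0555 to 0.0869), and in sgCTRL cells without DMSO replicate 2 or ibrutinib replicate 1 (0.147 to 0.250), with a change of -0.19 in the last case. It also ended without a variance trend in sgKLHL14 cells (0.0506) and without a filter or a variance trend in sgCTRL cells (0.0565 to 0.0754). PFDN6 had 10.91 and 10.68 against 11.02 and 10.77, and 10.81 and 10.78 against 11.03 and 10.78. The treatments overlapped with both guides, and its changes of -0.09 and -0.11 did not pass (adjusted p = 0.466 and 0.385). Of the other 3 subunits, named after their values were seen, PFDN1 had log2 changes of -0.14 and -0.03 in sgKLHL14 and sgCTRL cells, PFDN5 of 0.07 and 0.05, and VBP1 of -0.21 and -0.09, of which that of VBP1 in sgKLHL14 cells passed the test (adjusted p = 0.0290). Over the 6 subunits 3 fell in sgKLHL14 cells and 2 in sgCTRL cells.

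The mitochondrial genes held 3 of the 4 lowest changes. All 8 fell in sgKLHL14 cells and 7 of 8 in sgCTRL cells, with a median log2 change of -0.30 with either guide. LONP1, the matrix protease that removes damaged proteins, had 13.06 and 13.03 under ibrutinib against 13.90 and 13.71 in DMSO in sgKLHL14 cells, and 13.04 and 12.98 against 13.77 and 13.58 in sgCTRL cells. The DMSO libraries differed between replicates and still lay far above the ibrutinib libraries. Its log2 change was -0.76 ± 0.07 (SE; limma, adjusted p = 7.49e-08) in sgKLHL14 cells and -0.67 ± 0.07 (adjusted p = 4.34e-07) in sgCTRL cells.

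HSPA9 (mortalin), the mitochondrial HSP70 that pulls proteins through the inner membrane, had 14.33 and 14.23 under ibrutinib against 14.90 and 14.92 in DMSO in sgKLHL14 cells, and 14.22 and 14.25 against 14.92 and 14.86 in sgCTRL cells. Its log2 changes were -0.63 ± 0.06 (limma, adjusted p = 8.87e-08) and -0.66 ± 0.06 (adjusted p = 5.04e-08). Its RNA fell by 35.3% in sgKLHL14 cells and fell by 36.6% in sgCTRL cells. HSPD1, the large subunit of the mitochondrial chaperonin, had 15.12 and 15.06 against 15.67 and 15.68 in sgKLHL14 cells, and 15.09 and 15.08 against 15.57 and 15.60 in sgCTRL cells. It changed by -0.58 ± 0.06 (limma, adjusted p = 2.7e-07) and -0.50 ± 0.06 (adjusted p = 2.02e-06). Of all tested genes 5.84% in sgKLHL14 cells and 7.22% in sgCTRL cells had a change as low as or lower than that of HSPD1.

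HSPE1, the lid of the same chaperonin and the head-to-head neighbour of HSPD1, had 12.92 and 12.76 under ibrutinib against 13.15 and 13.08 in DMSO in sgKLHL14 cells, and 12.75 and 12.73 against 13.01 and 12.96 in sgCTRL cells. Its changes of -0.27 ± 0.06 (limma, adjusted p = 0.00152) and -0.24 ± 0.06 (adjusted p = 0.00503) stood beside changes of -0.58 and -0.50 for HSPD1. The log2 ratio of HSPD1 to HSPE1 was 2.30 ± 0.068 under ibrutinib and 2.58 ± 0.051 in DMSO (SD, n = 4 each over both guides), lower in each of the 4 ibrutinib libraries than in any DMSO library. The difference of -0.28 had a p of 0.0286, the smallest possible, in a two-sided exact permutation test of all 8 libraries without regard to guide. Adjusted over the 2 ratios compared, this p was 0.0571. With the HSP90AA1 to HSP90AB1 ratio at a p of 0.829 in the same test, no values of this ratio could have passed. The adjusted test therefore cannot decide. The difference was -0.31 in sgKLHL14 cells and -0.26 in sgCTRL cells.

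TRAP1, the mitochondrial HSP90, had 12.75 and 12.85 under ibrutinib against 13.19 and 13.07 in DMSO in sgKLHL14 cells, and 12.68 and 12.72 against 13.12 and 12.91 in sgCTRL cells. Its changes were -0.33 ± 0.07 (limma, adjusted p = 0.000778) and -0.32 ± 0.07 (adjusted p = 0.00132). DNAJA3, the J protein partner of HSPA9, changed by -0.21 ± 0.06 (limma, adjusted p = 0.0138) and -0.17 ± 0.06 (adjusted p = 0.0445), and CLPP, the core of a second matrix protease, by -0.25 ± 0.10 (adjusted p = 0.0492) and -0.28 ± 0.10 (adjusted p = 0.0287). GRPEL1, the nucleotide exchange factor of HSPA9, had 10 and 9.93 against 10.26 and 10.19 in sgKLHL14 cells (-0.26 ± 0.08, adjusted p = 0.0202), and 9.90 and 9.74 against 9.87 and 10.02 in sgCTRL cells, where the treatments overlapped (-0.12, adjusted p = 0.284).

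LONP1, HSPA9, HSPD1 and TRAP1 kept the call under all 16 alternatives with both guides, and HSPE1 did in sgKLHL14 cells. In sgKLHL14 cells CLPP lost it without DMSO replicate 1 or ibrutinib replicate 2 of sgKLHL14 or either ibrutinib library of sgCTRL, and DNAJA3 and GRPEL1 without DMSO replicate 1 or ibrutinib replicate 2 of sgKLHL14, at adjusted p of 0.0556 to 0.421. The change was -0.13 for DNAJA3 without DMSO replicate 1 and -0.13 for CLPP without ibrutinib replicate 2. In sgCTRL cells CLPP and DNAJA3 lost the call without DMSO replicate 1 or either ibrutinib library, and HSPE1 without ibrutinib replicate 2, at adjusted p of 0.0539 to 0.369, and the change of CLPP was -0.14 without DMSO replicate 1. With all libraries, CLPP and GRPEL1 also lost it in sgKLHL14 cells without a filter or a variance trend, DNAJA3 without a variance trend and CLPP with quantile or median scaling or voom (0.0505 to 0.191). In sgCTRL cells CLPP and DNAJA3 lost it without a filter or a variance trend, HSPE1 without a variance trend and DNAJA3 with quantile scaling (0.0580 to 0.154).

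**Figure D3:**
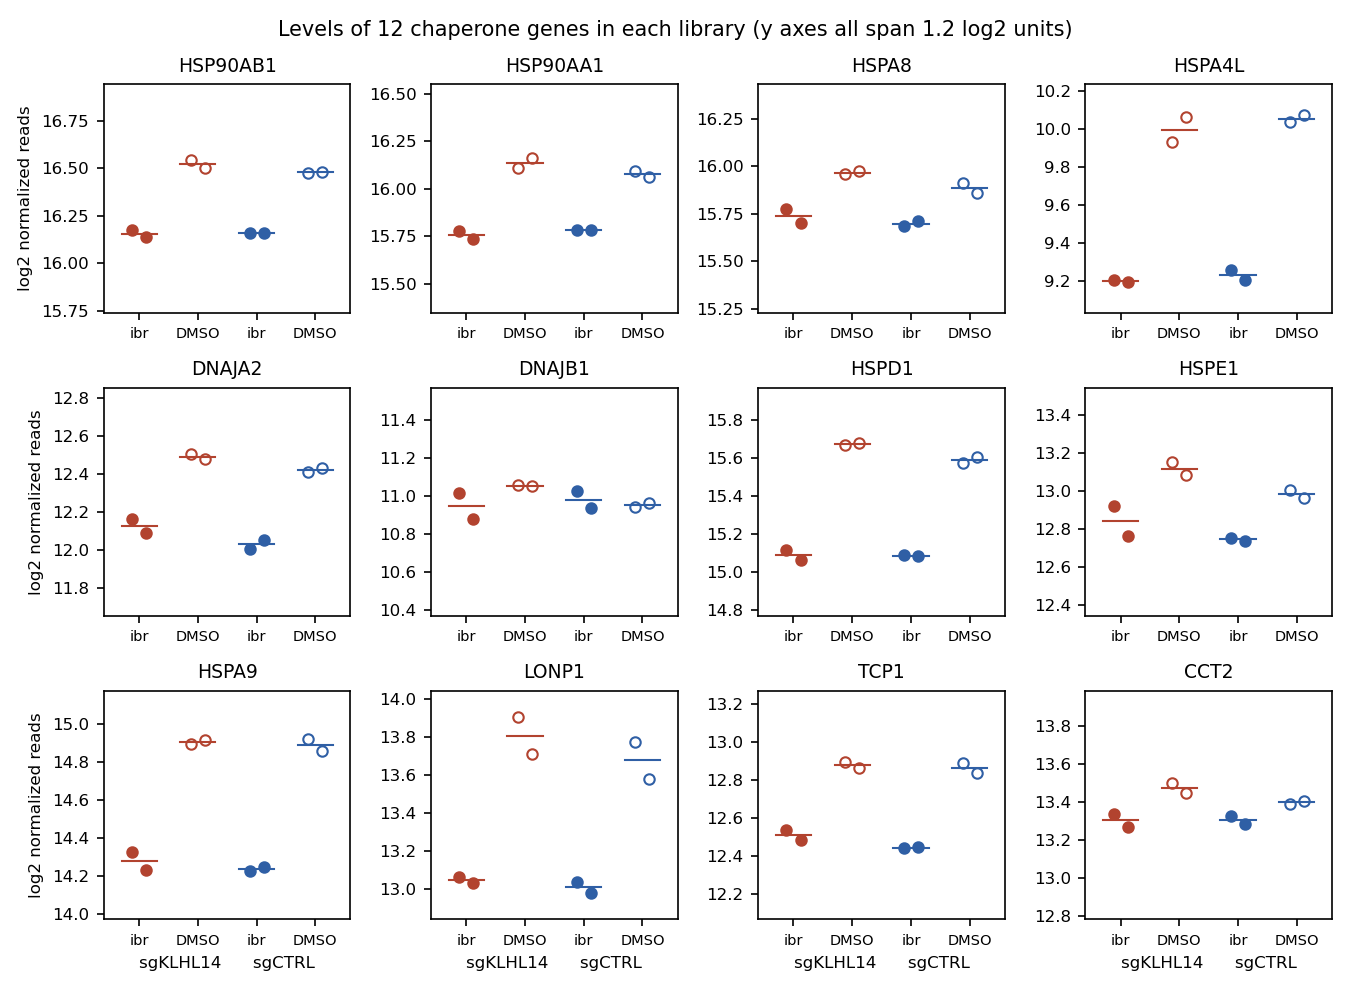
Log2 normalized reads (y axis, spanning the same range in each panel) of 12 chaperone genes in each library, with sgKLHL14 in red, sgCTRL in blue, ibrutinib (ibr) filled, DMSO open and a bar at the mean of the 2 libraries. For HSPA4L, HSPA9, HSPD1 and LONP1 the ibrutinib libraries lie 0.50 to 0.82 below the DMSO libraries on average, while for DNAJB1 in sgCTRL cells they overlap.

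The share of all reads taken by the 45 genes was smaller in each ibrutinib library than in any DMSO library. It averaged 1.75% ± 0.033 under ibrutinib and 2.20% ± 0.0057 in DMSO in sgKLHL14 cells (SD, n = 2 each), and 1.73% ± 0.00089 and 2.12% ± 0.020 in sgCTRL cells. The HSP90 system took 0.629% under ibrutinib and 0.798% in DMSO in sgKLHL14 cells, and 0.633% and 0.777% in sgCTRL cells. The mitochondrial genes took 0.309% and 0.449% in sgKLHL14 cells, and 0.303% and 0.431% in sgCTRL cells. TRiC took 0.368% and 0.445%, and 0.358% and 0.422%, and the HSP70 system took 0.424% and 0.487%, and 0.420% and 0.471%. Per kilobase of transcript HSP90AB1 had the highest level, with a mean of 28383 normalized reads under ibrutinib and 36618 in DMSO in sgKLHL14 cells, and 28459 and 35502 in sgCTRL cells, followed by HSPA8, HSP90AA1 and HSPD1 with 24590, 19717 and 20071 in the sgCTRL DMSO libraries. HSP90AA1 and HSPD1 were thus close there, at 19929 and 19505 against 19870 and 20273 in the 2 libraries, which overlap. HSPA8, HSP90AA1, HSP90AB1, HSPD1 and HSPE1 have many processed pseudogenes, and how the counting treated reads shared with them is not given in the sources used here.

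**Figure D4:**
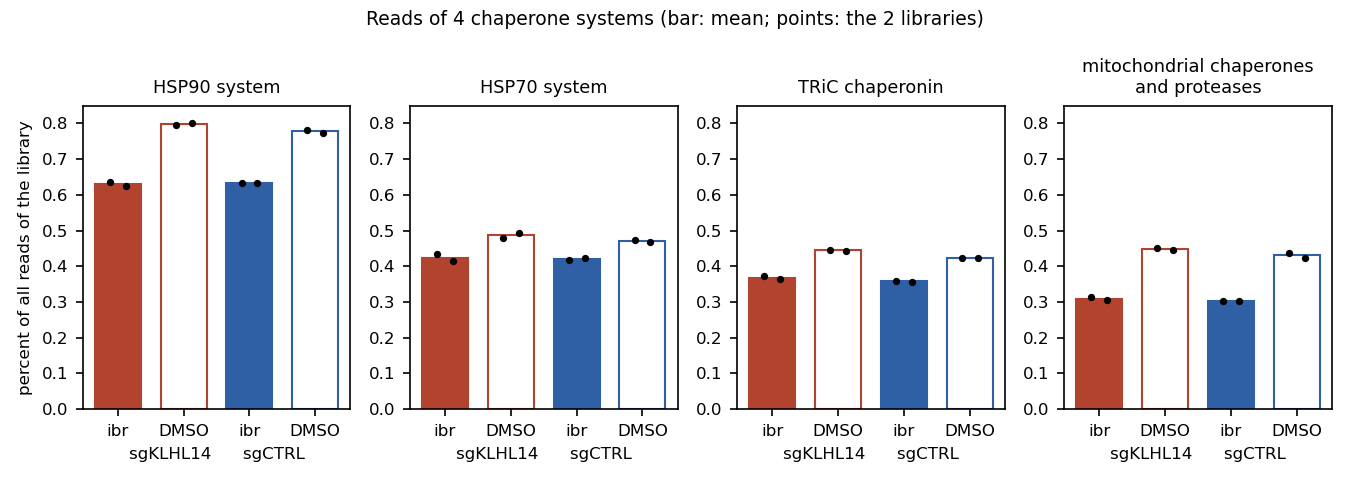
Percent of all reads of a library (y axis, from 0) that fell on the genes of 4 chaperone systems, as the mean (bar) and the 2 libraries (points) of each group, with ibrutinib (ibr) left of DMSO for sgKLHL14 (red) and sgCTRL (blue). In each panel the 4 ibrutinib libraries lie below the 4 DMSO libraries, and the HSP90 system takes the largest share at 0.629% to 0.798%.

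Other genes of the same machinery moved less uniformly. Of 39 further chaperones and cochaperones, most of them cytosolic, 38 were tested. Of these 12 (31.6%) fell and 4 (10.5%) rose with either guide. Their median log2 changes were -0.11 in sgKLHL14 cells and -0.08 in sgCTRL cells. Of all tested genes 19.3% fell and 19.7% rose in sgKLHL14 cells, and 16.9% fell and 17.9% rose in sgCTRL cells. PPID, a cyclophilin that binds HSP90, fell by 0.37 in sgKLHL14 cells (limma, adjusted p = 8.74e-05) and by 0.39 in sgCTRL cells (adjusted p = 5.93e-05). DNAJB2, a J protein that delivers proteins to the proteasome, had changes of 0.66 (adjusted p = 1.54e-06) and 0.73 (adjusted p = 4.41e-07) and so rose. Of 17 further mitochondrial genes 6 (35.3%) fell and 1 (5.88%) rose in sgKLHL14 cells, and 6 (35.3%) fell and 2 (11.8%) rose in sgCTRL cells. GRPEL2, a second exchange factor for HSPA9, fell by 0.90 (adjusted p = 3.02e-08) and by 0.87 (adjusted p = 5.19e-08), and SPG7, a subunit of an inner membrane protease and the 1 gene to rise with both guides, named after its values were seen, rose by 0.26 (adjusted p = 0.00836) and 0.22 (adjusted p = 0.0298). Of 12 other genes that HSF1 is known to switch on 9 were tested. Of these 3 (33.3%), IER5, CACYBP and SERPINH1, fell with both guides and 0 rose. IER5, which activates HSF1, fell by 0.47 (adjusted p = 5.1e-05) and by 0.37 (adjusted p = 0.000735).

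The guide made no difference that passed the test for any chaperone gene. In ibrutinib 0 of 44 were called between sgKLHL14 and sgCTRL cells, with 1 below an unadjusted p of 0.05. Of all genes there 1.57% were higher and 0.781% lower in sgKLHL14 cells, and 1624 of 12682 were below an unadjusted p of 0.05. In DMSO 0 of 44 were called, with 4 below an unadjusted p of 0.05. Of all genes in DMSO 0.773% were higher and 0.852% lower, and 1734 of 12682 were below an unadjusted p of 0.05. Voom also called 0 of the 44 in both treatments. In DMSO 41 of the 44 log2 changes were above 0, with a median of 0.073 and a range of -0.06 to 0.28. Of all 12682 tested genes 6436 were above 0 there, with a median of 0.0025. Under ibrutinib 34 of the 44 were above 0, against 6162 of all tested genes. All tested genes had a median of -0.004 there, and the 44 had a median of 0.044 and a range of -0.16 to 0.25. GRPEL1 had the lowest p in DMSO, with 10.26 and 10.19 in sgKLHL14 cells against 9.87 and 10.02 in sgCTRL cells (log2 change 0.28 ± 0.08; limma, adjusted p = 0.103). STUB1 had it under ibrutinib, with 9.50 and 9.51 in sgKLHL14 cells against 9.29 and 9.21 in sgCTRL cells (0.25 ± 0.10, adjusted p = 0.259). Neither pair of groups overlapped for those genes.

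**Figure D5:**
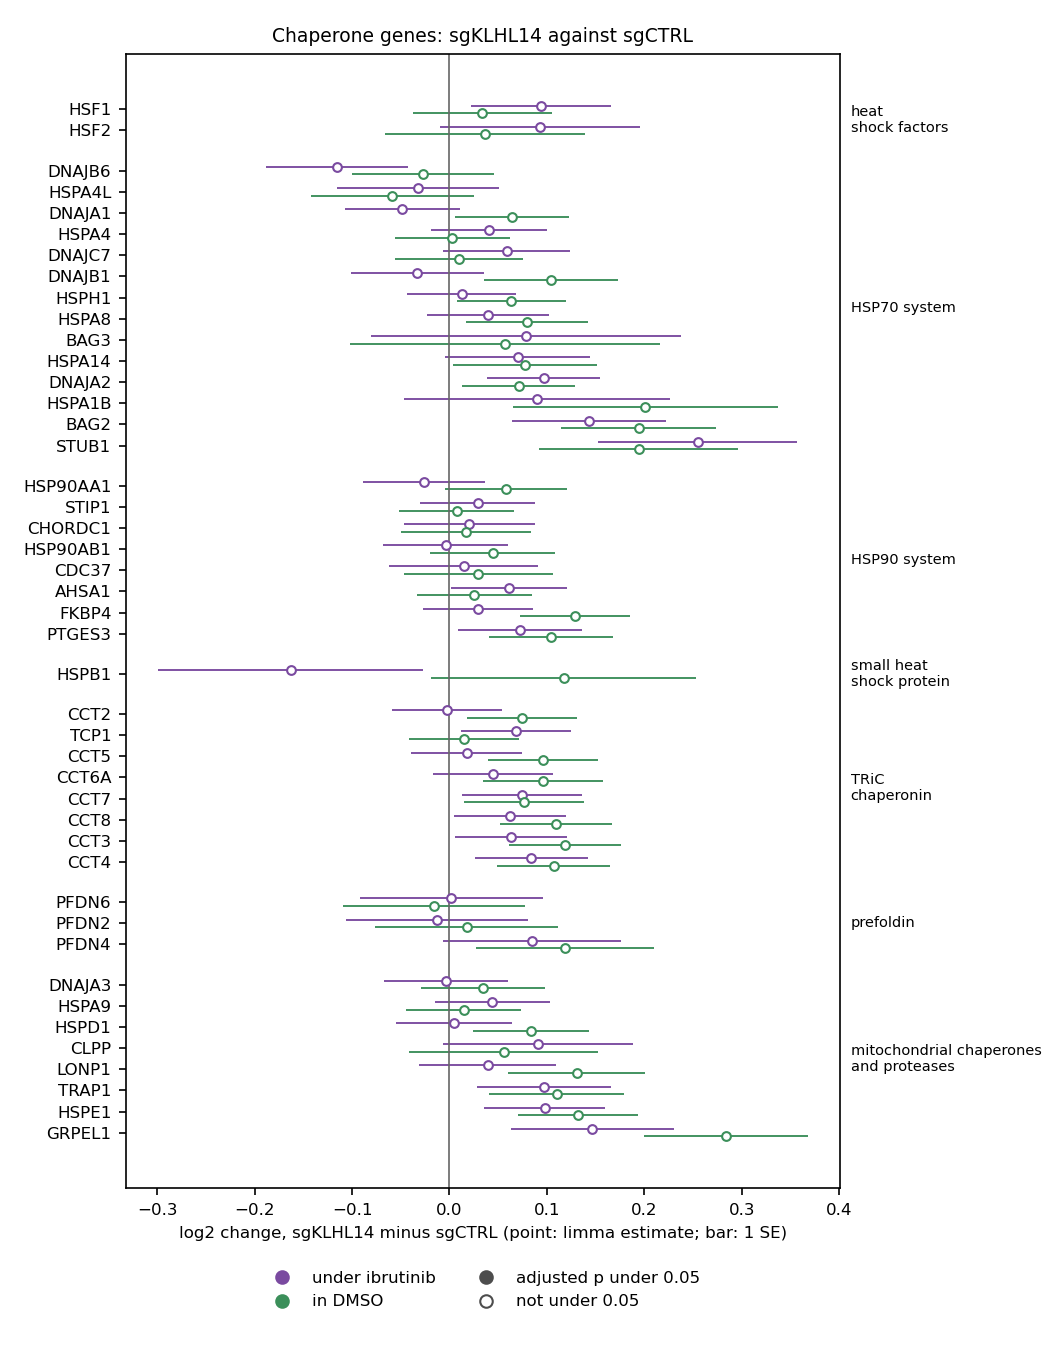
Log2 change of sgKLHL14 minus sgCTRL (x axis; point, limma estimate; bar, 1 SE; 2 libraries a group) for the 44 tested chaperone genes by system, under ibrutinib (purple) and in DMSO (green). All points are open because 0 of 44 passed an adjusted p of 0.05, and in DMSO 41 of them lie right of 0.

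The response to ibrutinib did not differ between the guides beyond the spread of the libraries for any of the 44 genes. In the test of the difference of responses 0 were called, 0 were below an unadjusted p of 0.05 and voom called 0. Of all 12682 tested genes 0.0158% were higher and 0.00789% lower in sgKLHL14 cells, and 721 were below an unadjusted p of 0.05. The differences of the 44 genes ran from -0.28 to 0.06 with a median of -0.03, and their lowest adjusted p was 0.937. HSPB1 had the largest difference in size, -0.28 ± 0.19 (SE; limma, adjusted p = 0.937), DNAJB1 had -0.14 ± 0.10 and FKBP4 -0.10 ± 0.08. For the genes with the lowest changes the differences were 0.03 for HSPA4L, -0.09 for LONP1, 0.03 for HSPA9 and -0.08 for HSPD1. With SEs of 0.08 to 0.22 over the 44 genes, small differences could not be seen with 2 libraries a group.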

How the data were processed

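Poly(A) RNA was made into stranded libraries and read as pairs, per the labels' protocols. The tools were bcl2fastq, STAR (alignment) and HTSeq (counting) on hg19, per the submitters' processing notes, with versions, annotation and strand setting not given in the sources used here. The table the authors deposited gives 25066 genes on a log2 scale. Its row of read totals was kept out of all tests. In linear terms a value was a whole read count multiplied by 1 factor per library, for 100% of values of up to 100 reads (tolerance 6e-04 in log2), with 1 read worth 1.16 to 2.19 and 0 reads listed at 0. The table had 0 columns of other samples.

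The 12682 genes with a mean of at least 4.03, the worth of 10 reads, entered 1 model of the 4 group means in limma 3.58.1 (R 4.3.3; variance prior following the mean, 4 residual and 15.05 prior degrees of freedom) with calls at a p under 0.05 after Benjamini-Hochberg adjustment over all of them. Of these 1 gene had a library at 0 reads. Contrasts were ibrutinib minus DMSO with each guide, sgKLHL14 minus sgCTRL in each treatment, and the difference of the ibrutinib responses. Lengths came from GENCODE transcripts and promoters from RefSeq, both on GRCh38. Ratios were tested in SciPy 1.17.1, with all 8 libraries permuted without regard to guide.

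The chosen genes and the further lists were chosen with earlier results of these data known. All 45 were named, with the log2 change and adjusted p of each call, and values by library are given for part of them, chosen with their results known. Further genes named are among the 4 of their list with the smallest p in a contrast, except where the text says that they were named after their values were seen. The 16 alternatives were other filters, no variance trend, other scalings, an added pseudocount, voom on the recovered reads, a replicate block and leaving out each library.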

Additional observations from a re-analysis of the deposited data

How the results depend on the processing

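Under 16 alternatives (other filters, scalings, pseudocount, variance model, voom, a replicate block, each library left out) the 64 chaperone calls for ibrutinib gave 1024 values, of which 902 stayed past the threshold in the same direction, 122 kept the direction without passing and 0 reversed, and 35 calls were never lost. Without 1 library the falls numbered 21 to 33 in sgKLHL14 cells (34 with all libraries) and 19 to 32 in sgCTRL cells (30 with all), and with all libraries 27 and 24 without a filter and 23 and 20 without a variance trend. Without 1 library all genes called in sgCTRL cells numbered 2907 to 4638 (4411 with all). Genes called between guides under ibrutinib (298) were 155 without a filter, 96 without a variance trend and 123 to 364 without 1 library. Those in DMSO (206) were 47, 25 and 63 to 534, and those in the difference of responses (3) were 0 and 0. The cause of these shifts was not tested. No chaperone gene was called for a guide or in the difference under any of the 16.

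Deviations of same-numbered libraries correlated at -0.11 to 0.21 between groups and not above 0.1 in every pair of groups, so they were not treated as pairs. With the replicate number as a block, all genes called numbered 5268 and 4765 for ibrutinib in sgKLHL14 and sgCTRL cells, 432 and 369 between guides under ibrutinib and in DMSO, and 5 in the difference, and the chaperone falls 34 and 32, with CDC37 and STUB1 then called in sgCTRL cells (adjusted p = 0.0230 and 0.0304). With 2 libraries a group, leaving 1 out assumes that the lone library varies like the others.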
